A study of Drosophila melanogaster with 35 samples.

Results

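Amylases, maltases and serine proteases of digestion were followed through 17 fat body libraries of adult female Drosophila melanogaster. The genes are the 9 rows of the fat body count table whose FlyBase identifiers map to Amy-p, Amy-d, Mal-A1, Mal-A5, Mal-A6, alphaTry, betaTry, epsilonTry and Jon74E, out of 14649 rows in all. They were picked by name with their levels already known, to show which are steady between libraries (Mal-A5) and which vary together. Their levels, joint variation and fold changes are therefore given as a description. All 9 were above the filter on low counts, which kept 9819 genes.

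Starch in fly food is cut by alpha-amylase, maltases release glucose from the resulting oligosaccharides, and trypsins and chymotrypsin-like Jonah proteases cut dietary protein. In the adult these enzymes are known as secreted products of midgut enterocytes. The fat body, which is dissected from the abdomen around the gut, stores lipid and glycogen and secretes yolk and plasma proteins.

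The libraries were poly(A) RNA of females aged 30 days, reared on 10% yeast and 5% sucrose, mated for 48 h and then kept without males. S106>UASfoxo flies carry the S106 driver and a UAS transgene of foxo, and S106 flies carry the driver alone. S106 is a GeneSwitch driver, active when flies eat RU486, and is known for activity in both fat body and digestive tract. In each genotype the switch group was fed 200 µM RU486 for 21 days, with control food for the following 7 days, and the control group is labelled RU486-. The treatment text of the labels names RU486 for control samples too, so the induction label sets the groups. S106>UASfoxo switch had 4 libraries, S106>UASfoxo control 4, S106 switch 4 and S106 control 5. Whether the libraries of a group stem from different cultures is not in the labels, and p-values therefore measure only the spread between libraries.

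Total counts ran from 6708078 to 27527703 per library, with the highest in S106 control replicate 4. Fat body markers (11 genes, yolk proteins and lipoproteins among them) summed to 24452 to 137979 CPM (library-size scaled counts, by TMM). Ovary and egg markers (20 genes) ran from 42.7 to 5657 CPM and were highest in S106 switch replicate 4. For foxo, the induced gene, the S106>UASfoxo switch libraries had 163 ± 59.5 CPM on average, against 105 ± 48.5 CPM in the control libraries of that genotype (SD, n = 4 each), 7 days after RU486 ended. In bulk RNA, fewer cells of a type and less RNA per cell cannot be told apart.

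All but Jon74E lie in 3 groups of neighbours on chromosome 2R of the BDGP6 annotation and Jon74E is on 3L, from 17548077 to 17549127. Mal-A1 (8449664 to 8451904), Mal-A5 (8462753 to 8465092) and Mal-A6 (8465158 to 8467595) belong to the maltase cluster, with 65 bases between Mal-A5 and Mal-A6. The trypsins alphaTry (11344260 to 11345119), epsilonTry (11345237 to 11346066) and betaTry (11346325 to 11347395) sit side by side, 117 and 258 bases apart. Amy-p (17118636 to 17120303) and Amy-d (17124764 to 17126369) are 4460 bases apart on opposite strands. The trypsins and amylases have 1 exon each, Mal-A1, Mal-A6 and Jon74E have 3 exonic blocks and Mal-A5 has 5. Amy-p and Amy-d are near-identical copies, and alphaTry and betaTry have close copies in the trypsin cluster. How reads that match several copies were counted is not given in the sources used here, so the split between copies is uncertain. No other row held the counts of any of the 9, and Mal-A1 alone overlaps another gene, Cyp4e1 on the opposite strand.

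Mal-A5, a maltase family gene, was the steadiest of the 9 between libraries. It had 43.0, 50.9, 41.6 and 29.8 CPM in S106>UASfoxo switch, against 33.0, 26.1, 32.4 and 15.4 CPM in S106>UASfoxo control. It had 52.4, 56.7, 53.4 and 71.7 CPM in S106 switch, against 47.4, 54.0, 47.7, 54.4 and 46.7 CPM in S106 control. The highest library was 4.67-fold above the lowest, which was S106>UASfoxo control replicate 4. The SD of its log2 CPM over the 17 libraries was 0.529, near the median of 0.559 over all genes tested, and 46.1% of tested genes had a smaller one. Among genes within 0.5 of its level (log2 of the mean CPM), 59.9% had a smaller one. Per kilobase of exon, Mal-A5 had the highest median level of the 9, at 22.5 CPM per kb.

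**Figure D1:**
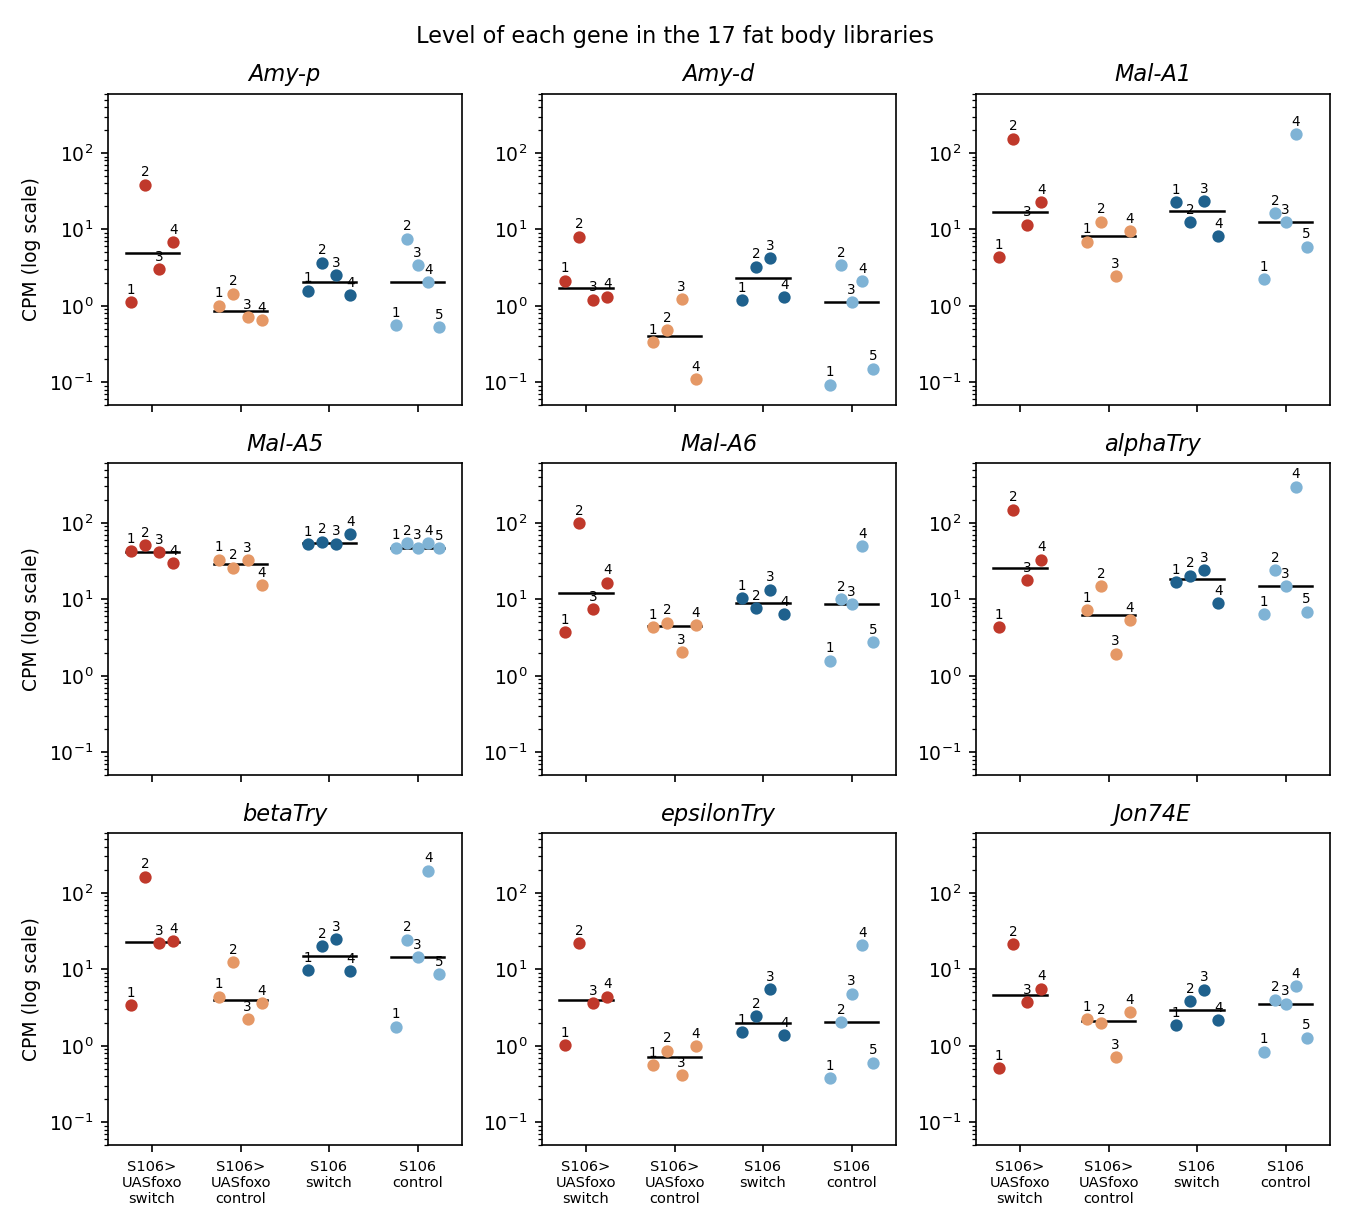
CPM of each gene (log axis) in every library, with S106>UASfoxo switch, S106>UASfoxo control, S106 switch and S106 control from left to right; numbers are replicates and bars are group medians. Mal-A5 stays between 15.4 and 71.7 CPM, while the other 8 genes have their highest value in S106>UASfoxo switch replicate 2 or S106 control replicate 4.

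The other maltases came and went. Mal-A1, a maltase gene of the same cluster, had 4.36, 154, 11.5 and 22.6 CPM in S106>UASfoxo switch, against 6.96, 12.7, 2.46 and 9.44 CPM in S106>UASfoxo control. It had 22.6, 12.5, 23.3 and 8.25 CPM in S106 switch, against 2.25, 16.5, 12.4, 175 and 5.97 CPM in S106 control. S106>UASfoxo switch replicate 2 and S106 control replicate 4 stood 6.60-fold and 7.51-fold above the third highest of the 17 libraries, and the groups overlapped in both genotypes. Mal-A6 followed Mal-A1, with 99.5 CPM in S106>UASfoxo switch replicate 2 and 49.8 CPM in S106 control replicate 4, and 1.59 to 16.6 CPM in the other 15 libraries. Mal-A5 and Mal-A6 are direct neighbours, yet Mal-A5 had between 0.512 and 29.7 counts for each count of Mal-A6.

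The trypsins, which cut proteins after lysine and arginine, included the 2 genes of widest range, alphaTry and betaTry. For alphaTry there were 4.36, 149, 17.7 and 33.2 CPM in S106>UASfoxo switch, against 7.29, 14.8, 1.95 and 5.38 CPM in S106>UASfoxo control. In S106 switch alphaTry stood at 16.7, 20.5, 24.2 and 8.94 CPM, against 6.38, 24.0, 15.0, 299 and 6.95 CPM in S106 control. The same 2 libraries were far above the rest, groups overlapped in both genotypes, and the highest library was 154-fold above the lowest. betaTry had 163 CPM in S106>UASfoxo switch replicate 2 and 195 CPM in S106 control replicate 4, and 1.78 to 24.7 CPM elsewhere.

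epsilonTry, the least abundant of the 3 trypsins, had 1.03, 22.2, 3.64 and 4.41 CPM in S106>UASfoxo switch, against 0.561, 0.862, 0.410 and 0.987 CPM in S106>UASfoxo control. Its level in S106 switch was 1.52, 2.45, 5.55 and 1.39 CPM, against 0.375, 2.04, 4.80, 20.8 and 0.604 CPM in S106 control. The S106>UASfoxo groups did not overlap, but their nearest values rest on 12 counts (Poisson 95% interval 0.530 to 1.79 CPM) and 9 counts (0.452 to 1.87 CPM), so they cannot be told apart at this depth.

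Jon74E, a Jonah serine protease, had 0.513, 21.6, 3.76 and 5.58 CPM in S106>UASfoxo switch, against 2.24, 2.01, 0.717 and 2.74 CPM in S106>UASfoxo control. It had 1.86, 3.81, 5.43 and 2.16 CPM in S106 switch, against 0.844, 4.01, 3.57, 6.01 and 1.28 CPM in S106 control. S106>UASfoxo switch replicate 2 stood 3.87-fold above the third highest library, while S106 control replicate 4 was 1.08-fold above it.

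The amylases parted the 2 libraries further. Amy-p had 1.11, 38.6, 3.03 and 6.76 CPM in S106>UASfoxo switch, against 1.01, 1.44, 0.717 and 0.658 CPM in S106>UASfoxo control. It had 1.58, 3.67, 2.53 and 1.39 CPM in S106 switch, against 0.563, 7.60, 3.44, 2.05 and 0.529 CPM in S106 control. Amy-p was therefore highest in S106>UASfoxo switch replicate 2, but S106 control replicate 4, highest for 3 of the genes, was in the middle of its group.

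Amy-d was the least abundant gene, with 2.14, 8.09, 1.21 and 1.32 CPM in S106>UASfoxo switch, against 0.337, 0.479, 1.23 and 0.110 CPM in S106>UASfoxo control. It had 1.19, 3.27, 4.22 and 1.31 CPM in S106 switch, against 0.0938, 3.40, 1.11, 2.09 and 0.151 CPM in S106 control. These rest on 1 to 51 counts: the 1 count of S106>UASfoxo control replicate 4 allows 0.00278 to 0.611 CPM (Poisson 95%, counting error only).

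Across libraries, S106>UASfoxo switch replicate 2 had the highest level for 5 of the 9 genes and one of the 2 highest for 8. S106 control replicate 4 had the highest for 3 and one of the 2 highest for 6. Those libraries hold the highest level of 6.45% and 3.29% of all genes tested. At the low end, S106 control replicate 1 and S106>UASfoxo control replicate 3 were each among the lowest 2 libraries for 6 of the genes. The 2 highest libraries of each gene held 17.0% of the summed CPM for Mal-A5, and from 38.8% (Amy-d) to 68.3% (alphaTry) for the other 8. By median CPM per kb the order under Mal-A5 was alphaTry (17.4), betaTry (11.6), Mal-A1 (6.80), Mal-A6 (3.28), Jon74E (3.04), epsilonTry (1.84), Amy-p (0.947) and Amy-d (0.765). Their ranges over libraries overlap at every step of this order.

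**Figure D2:**
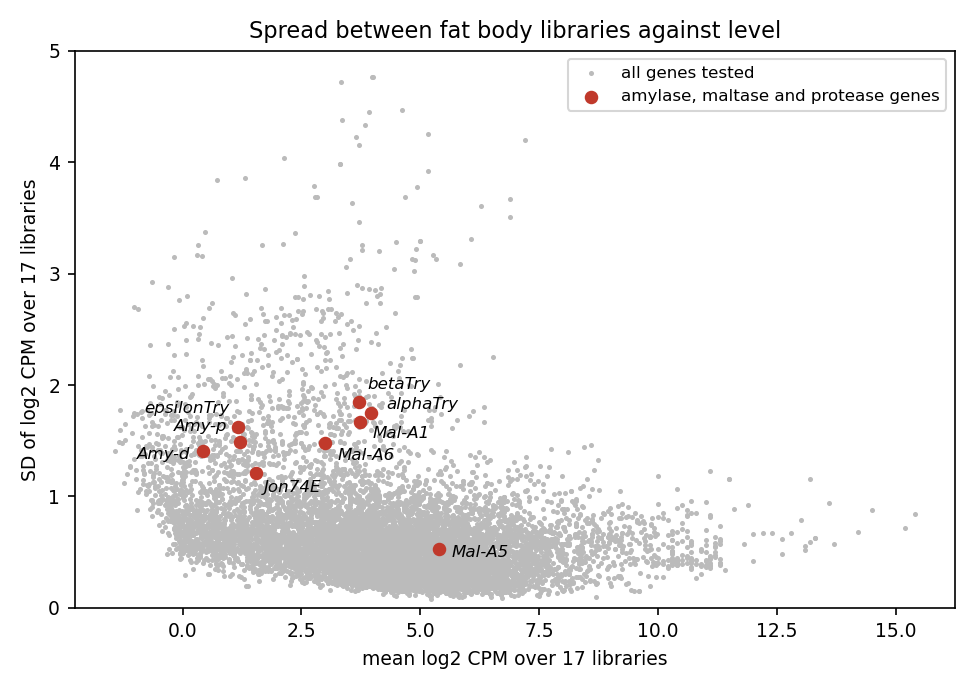
SD of log2 CPM over 17 libraries against mean log2 CPM, with all 9819 genes tested in grey and the 9 genes in red. Mal-A5 lies within the bulk of genes at an SD of 0.529, and the other 8 lie above it, from 1.21 (Jon74E) to 1.85 (betaTry).

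In SD of log2 CPM the 8 other genes ranked above 90.3% (Jon74E) to 96.8% (betaTry) of genes tested. Against genes within 0.5 of their own level (log2 of the mean CPM) they ranked above 79.7% (Jon74E) to 97.3% (betaTry), with Amy-p above 87.9%, Amy-d above 88.8% and epsilonTry above 90.5%. Without S106>UASfoxo switch replicate 2 and S106 control replicate 4 their SDs ran from 0.938 (Mal-A6) to 1.31 (Amy-d), with Mal-A5 at 0.551. The variation is therefore also present among the other 15 libraries.

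Log2 CPM of the 36 pairs of genes had a median Pearson r of 0.773 over the 17 libraries, which share RNA composition and depth with every gene, so no p is given. The 28 pairs without Mal-A5 ran from 0.573 to 0.973, with a median of 0.855. Highest were Mal-A1 with Mal-A6 (0.973) and alphaTry with betaTry (0.960). The 8 pairs with Mal-A5 ran from 0.158 to 0.534, with a median of 0.314, and 0.291 for its neighbour Mal-A6. With values centred within the 4 groups the medians were 0.849 for pairs without Mal-A5 and 0.100 for pairs with it. Within library rounds, sets of neighbouring library numbers in the labels, the medians were 0.837 and 0.236. Without the 2 libraries named above they were 0.838 and 0.267. Amy-d was the least tied of the 8, with 0.573 to alphaTry and 0.585 to Jon74E, and 0.778 to its copy Amy-p.

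**Figure D3:**
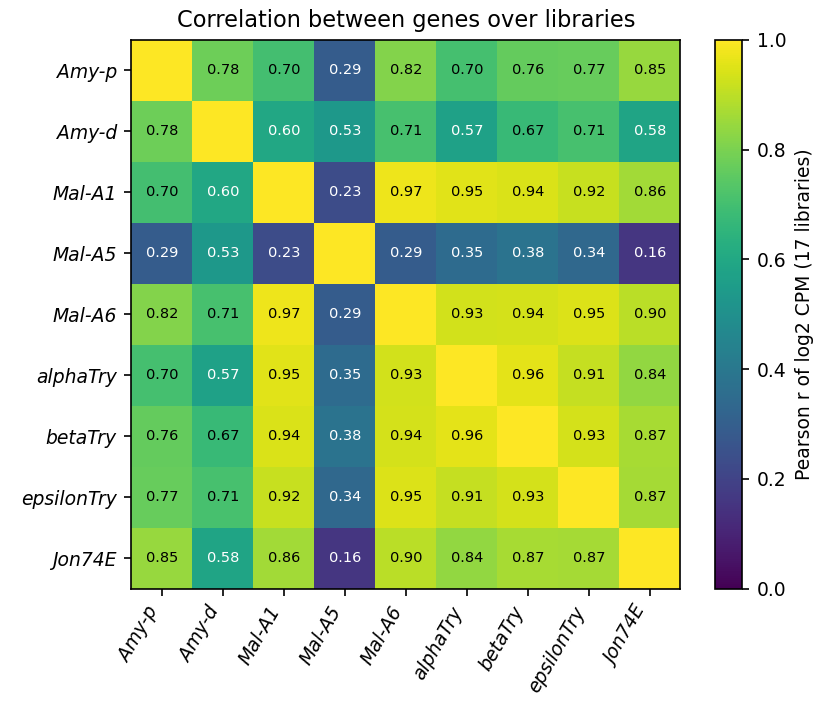
Pearson r of log2 CPM between every pair of the 9 genes over 17 libraries; the colour scale runs from 0 to 1. The row and column of Mal-A5 hold values of 0.16 to 0.53, and Mal-A1, Mal-A6 and the 3 trypsins hold 0.91 to 0.97 among themselves.

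Genes outside the 9 with the most similar pattern were ranked by Pearson r over the 17 libraries among 9652 genes with a mean of at least 10 counts. Bace, an aspartyl protease gene, was among the 5 most similar for 5 of the genes, with r = 0.955 to alphaTry. Mal-A7 and Mal-A8, maltase genes of the cluster, and CG4363 were each among the 5 for 4 genes. For alphaTry the list went on with the Jonah proteases Jon65Aiv (0.951) and Jon65Aiii (0.919). For Amy-p and Jon74E it held CG10910 (0.846 and 0.889) and CG6295 (0.839 and 0.865), both highest in S106>UASfoxo switch replicate 2. For Amy-d it was another set: MFS3 (0.910), CG7457 (0.889), the transferrin gene Tsf1 (0.886), the acyl-CoA dehydrogenase gene Mcad (0.868) and scu (0.867), all highest in S106 switch replicate 3. Tsf1 is one of the fat body markers and averaged 567 CPM. The 5 genes nearest to Mal-A5 were nst (0.940), Oga (0.935), omd (0.937), tzn (0.930) and Hacl (0.929), at means of 21.3 to 34.5 CPM. Of these, nst encodes phosphoacetylglucosamine mutase and Oga the enzyme that removes O-GlcNAc from proteins. All 5 were highest in S106 switch replicate 4, as was Mal-A5. That library, the richest in ovary and egg markers, held the highest level of 16.2% of all genes tested, the largest share of the 17.

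Other digestive genes were looked at by list. Of the 7 tested carbohydrase genes outside the 9, 5 had r over 0.5 with alphaTry, and of the 10 other tested trypsin, Jonah and Ser protease genes, 7 did. Over all genes tested the share was 5.50%. Mal-A7 had 20.0 CPM in S106>UASfoxo switch replicate 2 and 43.7 CPM in S106 control replicate 4, with a median of 1.10 CPM over 17 libraries, and Mal-A8 had 27.6 and 27.2 CPM there with a median of 1.32 CPM. Of the 28 listed proteases 18 were under the filter, and the close copies gammaTry and deltaTry had no count in 9 and 12 libraries. The carbohydrase genes Mal-B2 and tobi differed from these: they averaged 719 and 130 CPM and were at 109 CPM or more and at 25.7 CPM or more in every library. Mal-B1, with 240 CPM in S106>UASfoxo switch replicate 4 and 1.79 CPM in replicate 1 of that group, had an r of 0.138 with alphaTry.

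Markers of gut cells that are not digestive enzymes did not part the 2 highest libraries one way. Of the 12 enterocyte genes, 6 were higher in S106>UASfoxo switch replicate 2 and 6 in S106 control replicate 4. They summed to 57.3 to 164 CPM, and 4 of the 9 tested had r over 0.5 with alphaTry. By group these sums were 90.3 to 134 CPM in S106>UASfoxo switch, against 57.3 to 96.5 CPM in S106>UASfoxo control, and 69.1 to 164 CPM in S106 switch, against 66.7 to 161 CPM in S106 control. Myo31DF (22.3 to 57.8 CPM) and cad (4.02 to 104 CPM) had the highest means of the 12 genes and weigh most in these sums. cad had an r of −0.374 with alphaTry and was highest in S106 switch replicate 4, the library richest in ovary and egg markers. Among the 6 higher in S106 control replicate 4, the enterocyte gene mex1 had 2.22 CPM in S106>UASfoxo switch replicate 2 and 7.33 CPM in S106 control replicate 4, against a median of 0.738 CPM over 17 libraries. Vha100-4, a proton pump subunit of the acid-secreting copper cells, had 0.317 and 24.0 CPM in these, against a median of 0.241 CPM, and lab, the copper cell homeobox gene, was at 0 and at 1.66 CPM. The rest of those 6 were mesh at 11.1 and 30.6 CPM, Tsp2A at 7.93 and 10.4 CPM, and nub at 0.952 and 2.09 CPM. Among the 6 higher in S106>UASfoxo switch replicate 2, Myo31DF had 57.8 and 43.6 CPM and the homeobox gene cad 13.5 and 6.01 CPM. The rest were Npc1b at 8.89 and 6.86 CPM, GATAe at 3.02 and 2.47 CPM, Ssk at 16.0 and 14.8 CPM, and ninaD at 12.5 and 11.1 CPM. The even tally therefore leaves out that the sizes of the differences were unequal. The 10 enteroendocrine genes summed to 97.9 to 531 CPM, of which the peptide gene CCHa2, also known from the fat body, made 95.1 to 518 CPM, with 332 and 334 CPM in these libraries. Of the other enteroendocrine peptide genes, Tk had 0.635 and 1.79 CPM there, NPF 0.635 and 1.92 CPM, AstA 2.38 and 1.07 CPM and Dh31 0.635 and 0.170 CPM. thetaTry, another trypsin, had 2.06 and 71.3 CPM. Of the 34 tested genes of the 5 digestive and gut lists, 13 were highest in S106 control replicate 4 and 6 in S106>UASfoxo switch replicate 2. None of 7 tested Malpighian tubule markers and none of 19 tested ovary and egg markers had r over 0.5 with alphaTry, while 7 of 12 muscle markers and 2 of 10 fat body markers did. Muscle markers summed to 1324 to 4401 CPM and were highest in S106>UASfoxo switch replicate 2. Malpighian tubule markers were highest in that library too, at 391 CPM, against a median of 142 CPM over 17 libraries. Next came S106 control replicate 3 at 322 CPM, S106 control replicate 1 at 313 CPM and S106 switch replicate 3 at 297 CPM. In these alphaTry stood at 15.0, 6.38 and 24.2 CPM. The part of other tissues in the levels of the 9 genes was not tested.

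Ratios within a library do not depend on its depth. Amy-p had 0.259 counts for each count of alphaTry in S106>UASfoxo switch replicate 2 and 0.00684 in S106 control replicate 4, with a median of 0.155 over 17 libraries. Jon74E had 0.145 and 0.0201 counts for each of alphaTry in these libraries, with a median of 0.185. For betaTry over alphaTry the values were 1.09 and 0.653, with a median of 0.975, and for Mal-A1 over alphaTry 1.03 and 0.584, with a median of 0.859. Between the 2 libraries richest in trypsin, the ratios of betaTry and Mal-A1 to alphaTry differed less than those of Amy-p and Jon74E.

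**Figure D4:**
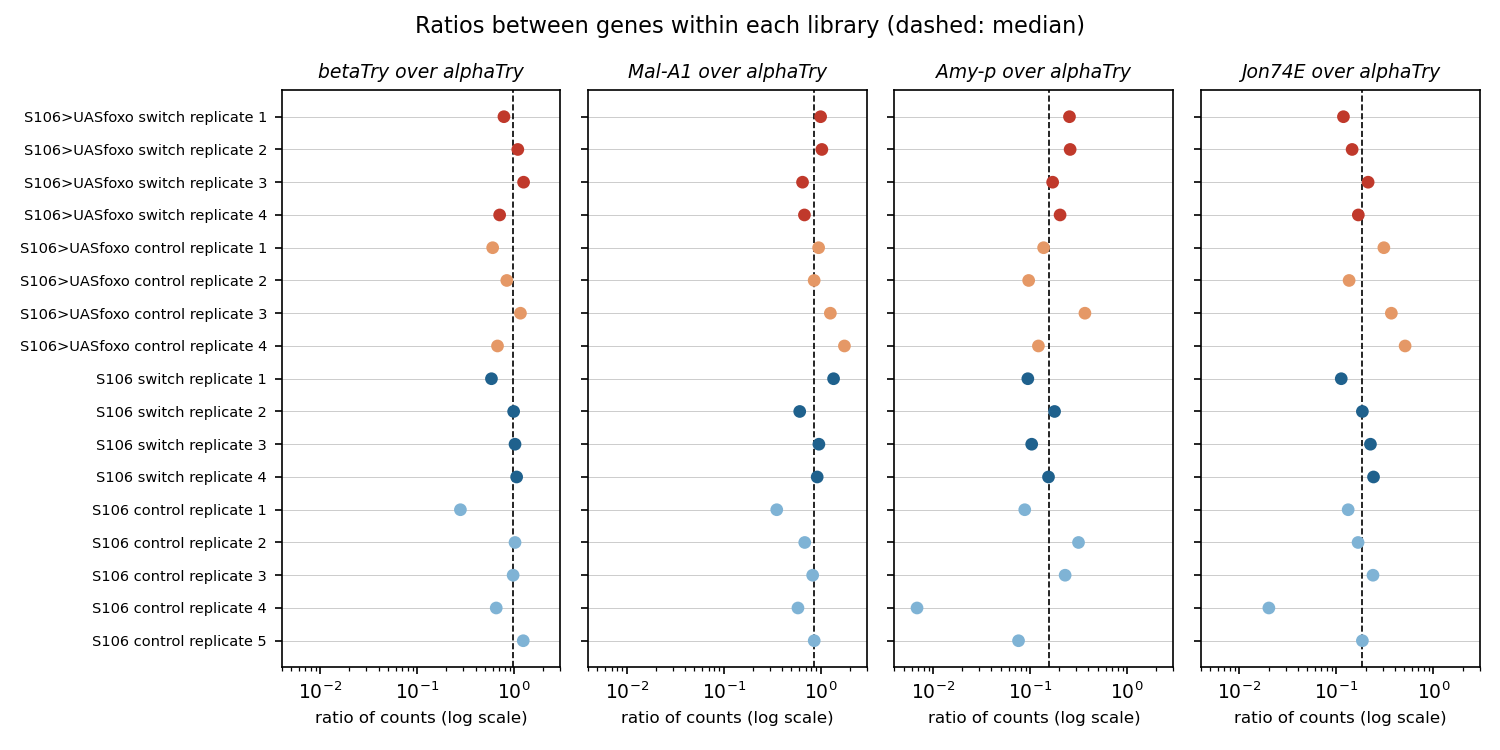
Ratio of counts of betaTry, Mal-A1, Amy-p and Jon74E to alphaTry (log axis) in each of the 17 libraries; dashed lines are medians and colours are the 4 groups. S106 control replicate 4 lies apart for Amy-p (0.00684) and Jon74E (0.0201), and within the range of the others for betaTry (0.653) and Mal-A1 (0.584).

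S106>UASfoxo switch against S106>UASfoxo control asks what remains after foxo induction has ended. All 9 log2 fold changes (edgeR) were above 0, as were 48.5% of all genes tested, with a median of 2.79 over the 9 and −0.02 over all genes. They were largest for Amy-p at 3.67 ± 1.03 (SE), epsilonTry at 3.44 ± 1.18 and betaTry at 3.21 ± 1.27, and smallest for Mal-A5 at 0.63 ± 0.22. Of the 9, 0 passed edgeR's quasi-likelihood test at an adjusted p under 0.05 (0% of all genes did), and 8 had an unadjusted p under 0.05, against 10.1% of genes in that direction. DESeq2 called 1, Amy-p with an adjusted p of 0.0346, against 0.463% of its genes in that direction. Groups did not overlap for 1 gene, epsilonTry, against 2.27% of genes. The larger values rest on S106>UASfoxo switch replicate 2. Without it all 9 stayed above 0, with a median of 1.31. Amy-p was then at 1.90, alphaTry at 1.31, Mal-A1 at 0.69 and Mal-A5 at 0.52. By library number that library is of round 3, and the S106>UASfoxo control libraries are of rounds 1, 2, 4 and 5. It therefore has no control of its genotype from its own round. In a fit with a term for the round all 9 were above 0, with a median of 1.92. Scaled to the fat body marker counts, the values are differences of group mean log2 levels, not edgeR fits. They were −0.08 for Mal-A5 and 0.43 to 1.73 for the other 8, beside a median of −0.74 over all genes. Both the scaling and the way of averaging differ from the fits above, so sizes cannot be compared directly.

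In S106 switch against S106 control, RU486 feeding without the transgene, 3 of the 9 were above 0, against 51.6% of all genes, with a median of −0.63. alphaTry stood at −2.00 ± 1.16 and betaTry at −1.62 ± 1.15, Mal-A1 at −1.35 ± 1.14 and Mal-A5 at 0.23 ± 0.21. These signs rest on S106 control replicate 4: without it alphaTry was at 0.42, betaTry at 0.37, Mal-A1 at 0.84, Mal-A6 at 0.72 and epsilonTry at 0.49, and 8 of the 9 were above 0. As differences of group mean log2 levels under the fat body marker scaling, with all libraries, 7 of the 9 were above 0. Their median was 0.34, beside 0.13 over all genes, and the groups overlapped. edgeR called 0 of the 9, against 0% of all genes, with 0 at an unadjusted p under 0.05, against 0.509% of genes lower, and DESeq2 called 0, against 0.0102% of genes lower. The difference of the switch effects, S106>UASfoxo minus S106, was above 0 for all 9, against 52.9% of all genes, with a median of 3.95. Without both libraries it was above 0 for 8 and the median was 0.49, and a fit with a term for the round gave a median of 2.27. Under the marker scaling it was above 0 for 8, with a median of 0.72, beside −0.80 over all genes. edgeR and DESeq2 called 0 for that difference, against 0% of all genes each, with 6 of the 9 at an unadjusted p under 0.05, against 1.37% of genes higher.

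**Figure D5:**
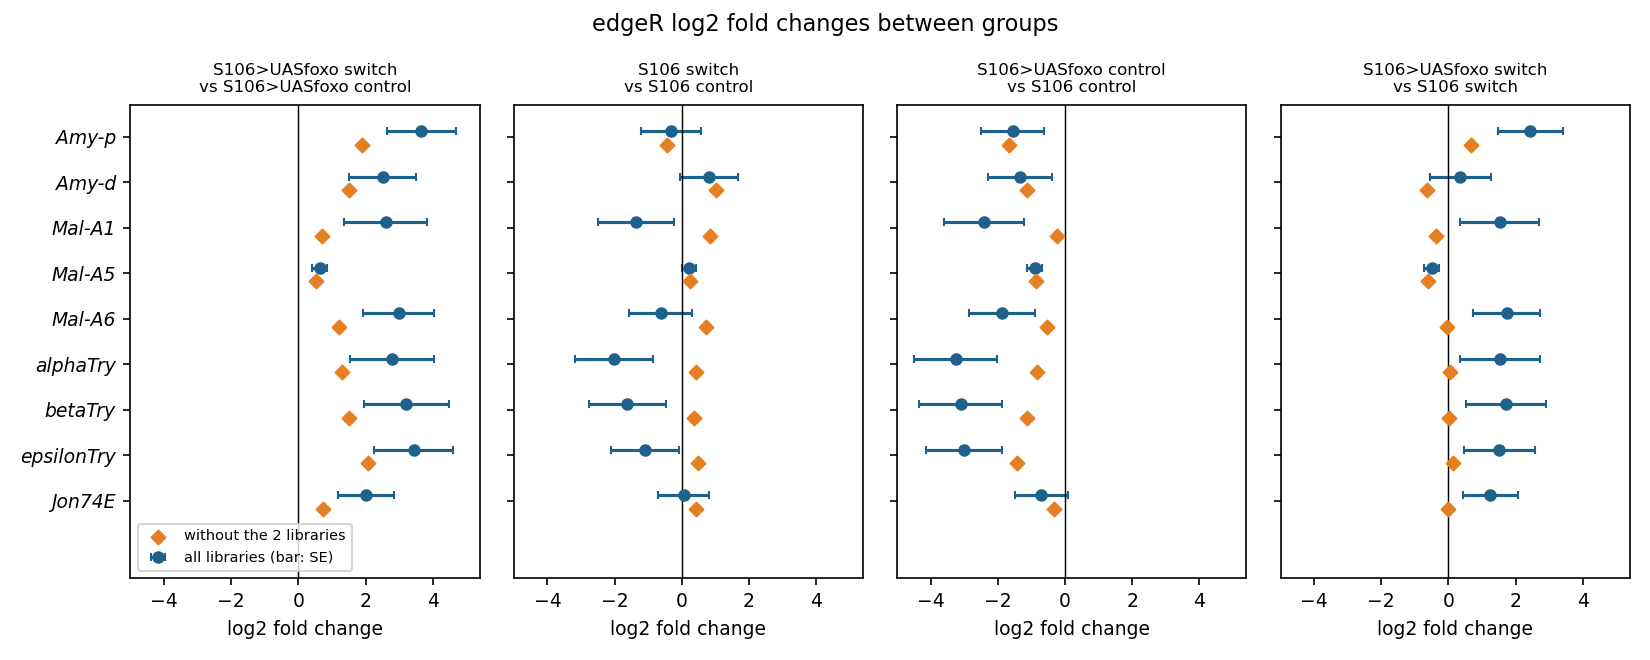
edgeR log2 fold changes of the 9 genes in 4 comparisons, with all libraries (circles, bars are SE) and without S106>UASfoxo switch replicate 2 and S106 control replicate 4 (diamonds). Without the 2 libraries alphaTry is at 0.42 in place of −2.00 in S106 switch against S106 control, while Mal-A5 moves little in any comparison.

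Between genotypes, Mal-A5 was lower in S106>UASfoxo in both feeding arms. In S106>UASfoxo control it averaged 26.7 ± 8.17 CPM (SD, n = 4), against 50.0 ± 3.83 CPM in S106 control (SD, n = 5), and the groups did not overlap. Its log2 fold change there was −0.91 ± 0.22, with an adjusted p of 0.392 by edgeR and 0.0301 by DESeq2, and it ran from −1.03 to −0.72 with single libraries left out. In S106>UASfoxo switch it averaged 41.3 ± 8.72 CPM, against 58.6 ± 8.94 CPM in S106 switch (SD, n = 4 each), again without overlap, at −0.50 ± 0.22. The nearest values of these switch groups were 50.9 CPM (Poisson 95% interval 45.5 to 56.8) and 52.4 CPM (49.1 to 55.9). Those libraries cannot be told apart at this depth. Mal-A5 was the 1 gene of the 9 whose groups did not overlap in each comparison, against 3.14% of all genes lower without overlap in the control arm and 0.509% in the switch arm. Under the fat body marker scaling the differences of group mean log2 levels were also below 0, at −0.73 and −1.16. Medians over all genes were 0.25 and −0.65, and the groups overlapped.

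For the other 8 the sizes in the control arm, and the signs in the switch arm, moved with single libraries. In S106>UASfoxo control against S106 control all 9 were below 0, as were 51.5% of all genes, with a median of −1.87, which was −0.88 without S106 control replicate 4, where alphaTry was at −0.83 in place of −3.25. All 9 stayed below 0 with any single library left out. They did so too in a fit with a term for the round, where the median was −1.16. edgeR called 0 of the 9 there, against 0.0102% of genes lower, with 4 at an unadjusted p under 0.05 against 8.83% of genes lower, and DESeq2 called 1, Mal-A5, against 0.0416% of genes lower. In S106>UASfoxo switch against S106 switch 8 of the 9 were above 0, against 46.2% of all genes, with a median of 1.52. Without S106>UASfoxo switch replicate 2 only 4 were, with alphaTry at 0.06, betaTry at 0.03 and Mal-A6 at −0.04. edgeR called 0 of the 9, against 0.0407% of genes higher and 0.0102% lower, and 2 had an unadjusted p under 0.05, Amy-p higher, against 1.13% of genes, and Mal-A5 lower, against 0.438%; DESeq2 called 0, against 0.0613% of genes higher and 0.0306% lower. The comparisons share groups, so their values are not independent.

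The known regulators of digestive enzyme genes were measured beside them. In flies dietary sugar lowers amylase and maltase transcripts through the Activin-like ligand Dawdle (daw) and its receptor Baboon (babo), and sugarbabe (sug) acts downstream of the sugar sensor Mondo. Over the 17 libraries babo and Smox, the Smad of that branch, were steady, with SDs of log2 CPM of 0.144 and 0.245, while daw and sug had 0.698 and 0.681. None of the 11 tested regulators had r over 0.5 with alphaTry; over all genes tested the share was 5.50%, so 0 of 11 is near the background. In S106>UASfoxo switch against S106>UASfoxo control 8 of 11 were above 0, against 48.5% of all genes, with a median of 0.14, and edgeR called 0, against 0% of all genes, daw being at 0.38 ± 0.46 and sug at 0.11 ± 0.49.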

How the data were processed

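The authors deposited raw read counts per gene for the fat body as 1 table. Tools listed in the submitters' processing notes are HISAT2, featureCounts, SAMtools, FastQC and DESeq2. Their versions, the build, the annotation and the strand setting are not given in the sources used, nor whether the kit's molecular barcodes served to remove PCR copies. In the gut table gene identifiers did not go with the counts, so it is not used here. FlyBase identifiers were matched to symbols and BDGP6 positions in the Ensembl annotation.

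From the counts, edgeR 4.0.16 (R 4.3.3) fitted 17 libraries in 4 groups with filterByExpr, TMM scaling and the robust quasi-likelihood test, adjusted by Benjamini-Hochberg over 9819 genes at 0.05. CPM values are TMM scaled and log2 CPM uses a prior count of 2. Fold changes are edgeR log2 values with quasi-likelihood SE, except under the marker scaling, where differences of group mean log2 levels are given. Alternatives were DESeq2 1.42.0, limma-voom (limma 3.58.1), RLE factors, other filters, prior counts of 0.5 and 5, blocks, centring, scaling to the fat body marker counts and leaving out each library. Leaving out both libraries with the most alphaTry together, and group differences under the marker scaling, were chosen after the data were seen. The code was tested on simulated data.

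The 9 genes and all lists were chosen with earlier results of these data known. Named genes are the 9, foxo, list members of highest mean or SD (every member of lists of 12 genes or fewer where of use), and the 5 genes of highest Pearson r with each of the 9. thetaTry, Jon65Aiii and other list genes outside this rule were named after their values were seen. Depth was 6708078 to 27527703 counts per library, and intervals cover counting error only. Same-numbered libraries correlated in their deviations from group means at −0.0633 to 0.584 (S106>UASfoxo), −0.420 to 0.770 (S106), −0.518 to 0.737 (control groups) and −0.0459 to 0.0389 (switch groups), so title numbers were not taken to pair libraries. By library round the values were 0.406 to 0.737 (control groups), 0.0555 to 0.783 (switch groups), −0.420 to 0.770 (S106) and −0.169 to 0.584 (S106>UASfoxo). The main fits have no term for the round.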

Additional observations from a re-analysis of the deposited data

Results flagged for a closer look

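Within the 36 combinations of gene and group, 1 library stood far from the rest of its group. Mal-A6 in S106>UASfoxo control replicate 3 was at a log2 CPM of 1.16 (2.05 CPM), below 2.19 to 2.37 in the other replicates, a gap of 0.852 of the group's whole range. The same library was among the lowest 2 of 17 for 6 of the 9 genes. Chance flags about 1 in 20 groups.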

How the results depend on the processing

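The number of the 9 genes called was 0 in all 5 comparisons by edgeR and limma-voom, under RLE factors, the other filters and with any single library left out, while DESeq2 called 1 (Amy-p) in S106>UASfoxo switch against S106>UASfoxo control and 1 (Mal-A5) in the genotype comparison of the control groups. With the title replicate number as a block, or the library round, 0 were called in every comparison, but medians over the 9 moved. For S106>UASfoxo switch against S106>UASfoxo control the median of 2.79 was 2.35 with the replicate block and 1.92 with the round block. In S106>UASfoxo switch against S106 switch the median of 1.52 was 0.70 with the replicate block and 0.86 with the round block, and for the difference of switch effects 3.95 was 2.55 and 2.27. In S106 switch against S106 control −0.63 was −0.20 with the replicate block, and in S106>UASfoxo control against S106 control −1.87 was −1.16 with the round block; the cause was not tested. The fit on the compared groups alone cannot give the difference of switch effects, and there Amy-d was under the filter in 2 comparisons.

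The median pairwise correlation of 0.773 became 0.692 under fat body marker scaling, 0.734 centred within groups and 0.723 within rounds, and ran from 0.668 (without S106>UASfoxo switch replicate 2) to 0.884 (without S106 control replicate 4) with single libraries left out; the cause was not tested. Mal-A5 had the smallest SD of the 9 in every setting, from 0.281 centred within groups to 0.820 under fat body marker scaling. Depth limits the amylases, epsilonTry and Jon74E, with as few as 1 to 6 counts in single libraries.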

Other observations

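The 3 tested lysozyme genes did not share 1 pattern: LysP and LysD were highest in S106>UASfoxo switch replicate 4, and LysX in S106>UASfoxo control replicate 1. LysP reached 232 CPM in S106>UASfoxo switch replicate 4, against a median of 0.272 CPM over 17 libraries, and had no count in 3. It had 54.5 CPM in S106>UASfoxo control replicate 4 and 29.5 CPM in S106 control replicate 5, the other libraries of round 5. Elsewhere it was at 7.85 CPM or less. In S106>UASfoxo switch replicate 4 Mal-B1 was also at its highest, at 240 CPM, while alphaTry stood at 33.2 CPM. The r of LysP with alphaTry over the 17 libraries was −0.02. The digestive lipase gene mag, with 6.98 CPM in S106>UASfoxo switch replicate 2 and 7.88 CPM in S106 control replicate 4, had an r of 0.706 with alphaTry. Ser12, a serine protease, ran from 0 counts in 5 libraries to 109 CPM in S106 switch replicate 3. Its SD of log2 CPM was 3.69 and its r with alphaTry 0.05. The sum of 4 spermatheca markers was at most 0.0855 CPM in those 5 libraries and 99.2 CPM in S106 switch replicate 3. That sum was highest in S106 control replicate 1, at 139 CPM, where Ser12 had 85.2 CPM. The part of spermatheca RNA in the level of Ser12 was not tested.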
